A study of Homo sapiens with 2 samples.

Results

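Axon guidance and synaptic adhesion genes were compared between 2 RNA-seq libraries of HES2, a human embryonic stem cell line in wide use. The members were taken by gene symbol from the authors' deposited table, using the family names of semaphorins, plexins, neuropilins, ephrins and EPH receptors, netrins, SLITs, neurexins, neuroligins, contactins, NOGO and neurotrophin receptors, synaptotagmins, syntaxins, synapsins and their relatives. The names matched 51 of the 2005 genes in that table. The scramble group had been infected with a lentivirus carrying a scrambled control, and the knockdown group with a lentivirus carrying a short hairpin RNA (shRNA) against TFCP2L1, a transcription factor of the CP2 family. Both cultures grew for 3 passages in basal medium with 10% KSR (a serum replacement), to which FGF2 and Activin A were each added at 10 ng/ml. Each group had 1 library, so no difference below has a replicate check or a test, and effects of the shRNA and of the separate cultures cannot be told apart. The number of hairpins and of infected clones is not given in the sources used here.

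Guidance genes encode cues and receptors by which a growing axon or a migrating cell reads its surroundings. Semaphorins act through plexins and neuropilins, ephrins through EPH receptor kinases, netrins through DCC and UNC5 receptors, and SLITs through ROBO receptors. Many of these molecules also steer cell movement and tissue boundaries in the early embryo, outside the nervous system. Synaptic adhesion molecules such as neurexins and neuroligins join the membranes on either side of a synapse, and synaptotagmins, syntaxins and synapsins serve the release of neurotransmitter from vesicles.

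Levels are given in FPKM, fragments scaled by gene length and by library size, so that genes can be compared with each other. Read numbers were inferred from the deposited levels and p-values. They imply libraries of about 23430000 (scramble) and 22710000 (knockdown) reads. A member drew 20 to 23081 reads when its libraries were added, and the median member 371. Ratios are of reads scaled by depth, and their 95% intervals (exact, Clopper-Pearson) hold counting error alone. TFCP2L1 itself had 3.19 FPKM with the scramble control and 0.33 FPKM with the knockdown, 9.70-fold lower (interval 7.56 to 12.6). Of 13 markers of undifferentiated pluripotent cells, 3 had a row (SOX2, PODXL and UTF1), and all 3 were lower in the knockdown library (summed level 491 and 180 FPKM). Of 12 primitive streak markers 11 had a row, 10 higher and 1 lower (summed level 37.7 and 902 FPKM), and of 11 definitive endoderm markers 9 had a row, all higher (9.58 and 968 FPKM). EVX1 of the former and SOX17 of the latter were at the floor of 0.01 FPKM in the scramble library. The part that any other cell type played in the values below was not tested, and in RNA from whole cultures fewer cells of a type and less RNA per cell cannot be told apart.

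The 51 members divided almost evenly, with 26 higher and 25 lower in the knockdown library. Higher genes made up 51% of the members, beside 54.1% of all genes in the table, and lower genes 49.0% beside 45.9%, so the direction of the members as a whole was near that of the table. Only genes within the authors' own limits are in the table, with a false discovery rate of at most 9.90e-04 and at least a 2-fold difference, so every member had to differ. The counts below are by family name. Of 21 guidance cues, receptors and their mediators 16 were higher and 5 lower, and all 5 LRRN and SLITRK genes were higher. All 6 genes taken by the names of NOGO-related genes and of neurotrophic factor receptors were lower, among them RTN4IP1, which is no receptor, and the leucine-rich repeat genes LINGO2 and RTN4RL2. Of 10 genes taken by the names of synaptotagmins, syntaxins, synapsins and their relatives and of pentraxins 9 were lower, among them SYNPO2, which is no vesicle gene. The 9 neurexin, neuroligin, contactin and neurofascin genes were mixed, 4 higher and 5 lower. These groups were formed with earlier results of the data known, and their differences were not tested.

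By a rule of size, 42 members reached 1 FPKM in either library or both. Of these 42, 18 were higher by 2-fold or more (42.9%, beside 51.6% of the 1587 table genes at that level) and 22 lower by 2-fold or more (52.4%, beside 44.7%), on the scale of log2(FPKM + 0.1). The other two, NRP1 and EFNB2, were higher by slightly less. Past 4-fold there were 8 higher members (19%, beside 15.1% of the table) and 1 lower member, NPTX2 (2.38%, beside 6.74%). The counting interval lay wholly above 2-fold for 20 members (39.2%, beside 38.2% of all genes in the table) and wholly beyond 2-fold lower for 16 (31.4%, beside 26.3%). The members' median log2 ratio was -1.02 at 1 FPKM or more and 0.95 over all 51, beside 1.02 for table genes at that level. As the limits of the table leave no gene near 0, the medians by direction say more: 1.56 for the 26 higher members (1.5 in the table) and -1.48 for the 25 lower ones (-1.37 in the table).

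**Figure D1:**
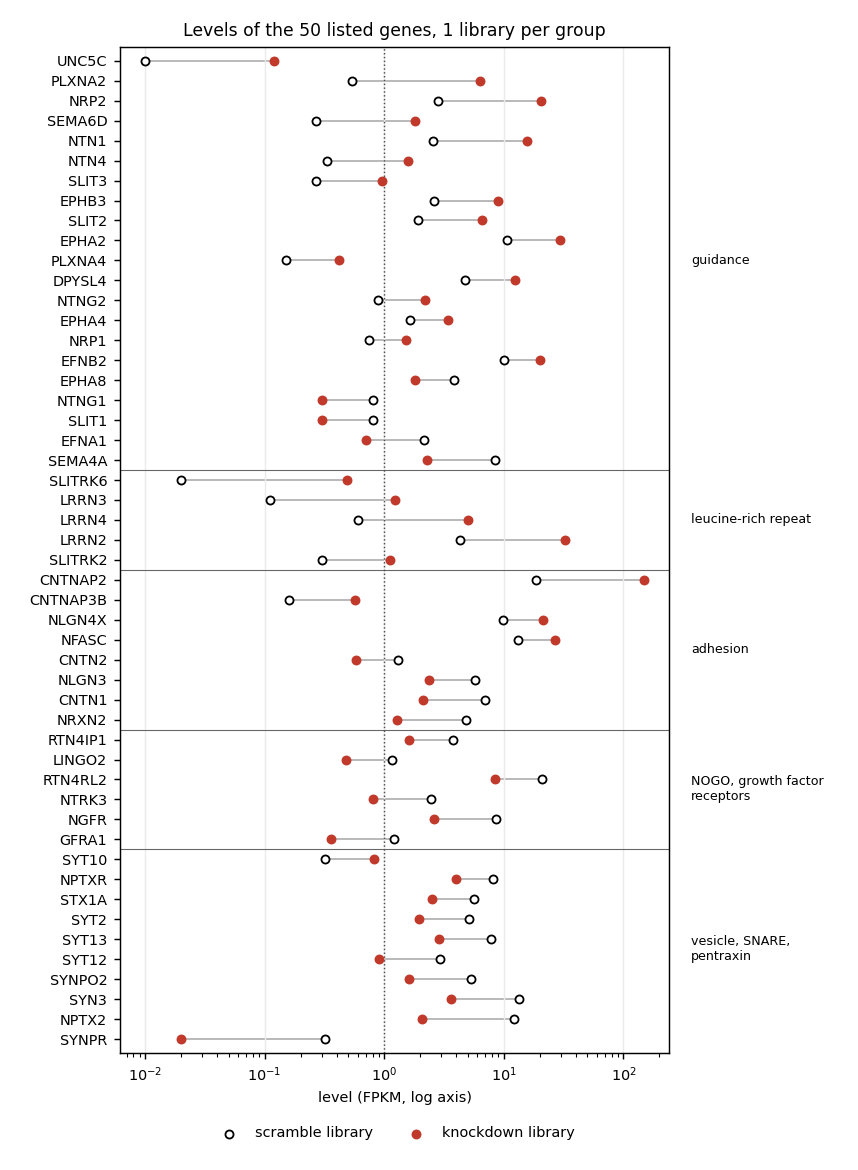
Levels of 50 members in FPKM on a log axis, with the scramble library as open circles and the knockdown library as filled red circles, ordered within groups of related genes. The dotted line marks 1 FPKM, 0.01 FPKM is the floor of the deposited values, and each point is 1 library. Most genes of the guidance group and all LRRN and SLITRK genes (the group marked leucine-rich repeat) lie to the right of their scramble level, while the genes of the group marked NOGO, growth factor receptors and all but SYT10 of the lowest group lie to the left.

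Among semaphorin receptors, all 4 listed genes were higher in the knockdown library. PLXNA2, a plexin that carries semaphorin signals into the cell, had 0.54 FPKM with the scramble control and 6.33 FPKM with the knockdown, a ratio of 11.8 (interval 9.92 to 14). NRP2, a co-receptor for class III semaphorins and for VEGF, was at 2.84 and 20.3 FPKM, a ratio of 7.18 (interval 6.43 to 8.04). In each the knockdown library was far above the scramble library. NRP1, the close relative of NRP2, was at 0.74 and 1.52 FPKM, a ratio of 2.61 by reads (interval 1.85 to 3.72) and of 2.05 by levels. PLXNA4 stayed at a low level, with 0.15 and 0.42 FPKM and a ratio of 2.44 (interval 1.72 to 3.51). NRP2 made up 79.3% of the summed FPKM of the neuropilins with the scramble control and 93% with the knockdown.

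Of the 20 semaphorin genes that RefSeq names, 2 had a row, and they went opposite ways. SEMA6D, a transmembrane semaphorin, was at 0.27 and 1.79 FPKM, a ratio of 6.49 (interval 4.57 to 9.44). SEMA4A, a transmembrane semaphorin best known from immune cells, was at 8.46 and 2.27 FPKM, 3.77-fold lower (interval 3.16 to 4.50). DPYSL4, of the cytosolic family that mediates semaphorin signals to the cytoskeleton, was at 4.69 and 12.5 FPKM, a ratio of 2.43 (interval 2.13 to 2.77). The semaphorin side thus held receptors and a mediator that were higher, with ligands divided.

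Because TFCP2L1 belongs to the CP2 family, RefSeq promoters (GRCh38.p14, from 250 bases before to 50 bases after a gene's start) were searched on both strands for a pair of CCNG half-sites with any 6 bases between them, a spaced repeat of the kind that CP2 factors bind. The promoters shown are those of NRP2, PLXNA2 and SLIT2, which were higher, and NPTX2, which had the lowest ratio among members at 1 FPKM or more. Each has 1 start in RefSeq, each is written 5′ to 3′ on the gene's strand, and capitals mark matches to the repeat.
NRP2 lies at chr2:205682251-205682550 (plus strand), PLXNA2 at chr1:208244335-208244634 (minus strand), SLIT2 at chr4:20251655-20251954 (plus strand) and NPTX2 at chr7:98617035-98617334 (plus strand).
NRP2: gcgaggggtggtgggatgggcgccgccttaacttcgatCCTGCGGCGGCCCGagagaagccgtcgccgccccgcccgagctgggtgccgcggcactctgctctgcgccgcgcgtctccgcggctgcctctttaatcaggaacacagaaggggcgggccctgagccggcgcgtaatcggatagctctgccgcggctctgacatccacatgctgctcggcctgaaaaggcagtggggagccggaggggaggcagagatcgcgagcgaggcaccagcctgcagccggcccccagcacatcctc
PLXNA2: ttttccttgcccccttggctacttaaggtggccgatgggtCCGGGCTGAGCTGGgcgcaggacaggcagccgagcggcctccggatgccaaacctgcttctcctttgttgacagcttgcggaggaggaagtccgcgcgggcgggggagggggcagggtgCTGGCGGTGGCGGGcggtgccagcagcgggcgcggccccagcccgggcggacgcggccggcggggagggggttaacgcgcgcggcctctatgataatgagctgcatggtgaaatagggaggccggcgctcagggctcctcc
SLIT2: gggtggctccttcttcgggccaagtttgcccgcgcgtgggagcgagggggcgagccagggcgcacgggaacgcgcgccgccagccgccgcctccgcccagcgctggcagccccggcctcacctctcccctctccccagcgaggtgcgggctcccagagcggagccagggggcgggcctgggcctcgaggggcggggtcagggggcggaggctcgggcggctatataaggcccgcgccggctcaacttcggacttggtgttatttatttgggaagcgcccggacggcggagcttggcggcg
NPTX2: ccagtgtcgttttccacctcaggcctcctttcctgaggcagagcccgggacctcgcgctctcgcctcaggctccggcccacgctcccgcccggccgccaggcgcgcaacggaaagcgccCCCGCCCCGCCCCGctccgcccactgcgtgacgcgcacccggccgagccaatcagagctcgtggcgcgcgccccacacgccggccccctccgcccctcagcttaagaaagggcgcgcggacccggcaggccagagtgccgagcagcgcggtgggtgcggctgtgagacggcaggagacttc
The repeat stood in the promoters of NRP2 and NPTX2 and in PLXNA2 at 2 places, and not in the SLIT2 window. Of 60 promoters of the 39 members with an entry, 14 of 28 from higher members and 14 of 32 from lower members held it. That was near the 49.0% of the 2083 promoters of all table genes, while 39.4% of all 35116 RefSeq promoters held it. The fixed letters of the repeat are C and G. The median GC content was 63.3% for promoters of table genes and 58.7% for all promoters. It was 66.0% for promoters of higher members and 61.3% for those of lower members. The part of GC content in these shares was not tested. Of the other motifs searched on both strands, CTTTGAT (TCF/LEF) stood in 1 member promoter, of SEMA6D, beside 2.62% of all promoters. AGGTGTGA (T-box, 0.980% of all promoters) and the core of the RE1 element (AGCACC and GGACAG with any 2 bases between, 0.0570%) stood in none. A match is a description of these letters and shows no binding.

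Of the 14 EPH receptor genes that RefSeq names, 4 had a row, 3 higher and 1 lower. EPHA2, a receptor kinase of epithelia and of early embryonic cells, was at 10.6 and 29.7 FPKM, a ratio of 2.80 (interval 2.60 to 3.02). EPHB3, a receptor for B-type ephrins, was at 2.60 and 8.91 FPKM, a ratio of 3.44 (interval 2.98 to 3.97). EPHA4, which binds ephrins of both types, was at 1.65 and 3.43 FPKM, a ratio of 2.08 (interval 1.78 to 2.43). The exception was EPHA8, at 3.81 and 1.82 FPKM, 2.02-fold lower (interval 1.58 to 2.60). Summed over the 4 listed receptors, the level was 18.7 and 43.9 FPKM, and EPHA2 held the largest share in each library.

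The listed ephrins went opposite ways. EFNB2, a transmembrane ephrin, was at 10.0 and 20.1 FPKM, a ratio of 2.01 (interval 1.86 to 2.17), the higher member whose level ratio lay nearest to the authors' 2-fold limit. EFNA1, an ephrin anchored to the membrane by a lipid, was at 2.13 and 0.70 FPKM, 3.06-fold lower (interval 1.91 to 5.07). Of the exon bases of EFNB2, 26.2% overlap a gene on the opposite strand, and without a stated strand setting reads of the overlapping genes cannot be told apart.

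The listed netrins and SLITs, like the listed EPH receptors, held a higher majority with a lower relative. NTN1, the secreted cue that attracts axons through DCC, was at 2.54 and 15.5 FPKM, a ratio of 6.10 (interval 5.45 to 6.85). NTN4, a laminin-like netrin of basement membranes, was at 0.33 and 1.58 FPKM, a ratio of 4.77 (interval 3.15 to 7.45). The membrane-anchored netrins were divided. NTNG2 was at 0.88 and 2.21 FPKM, a ratio of 2.53 (interval 1.87 to 3.45), and NTNG1 at 0.80 and 0.30 FPKM, 2.70-fold lower (interval 1.89 to 3.92). The netrin receptor UNC5C was at the floor of 0.01 FPKM with the scramble control and at 0.12 FPKM with the knockdown, on 2 and 27 reads, a ratio of 14 (interval 3.51 to 121). It was the 1 listed gene of 7 that RefSeq names with the letters of DCC or UNC5, counted by symbol alone.

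All 3 SLIT genes had a row, and none of the 4 ROBO receptor genes did. SLIT2 was at 1.93 and 6.56 FPKM, a ratio of 3.40 (interval 3.02 to 3.84), and SLIT3 at 0.27 and 0.96 FPKM, a ratio of 3.59 (interval 2.69 to 4.86). SLIT1 went the other way, at 0.80 and 0.30 FPKM, 3.65-fold lower on 117 and 31 reads (interval 2.44 to 5.61). The ratio of its levels alone, 0.375, is nearer to 1 than the ratio of its reads, 0.274. As a share of the summed FPKM of the SLIT genes, SLIT1 was 26.7% with the scramble control and 3.84% with the knockdown.

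**Figure D2:**
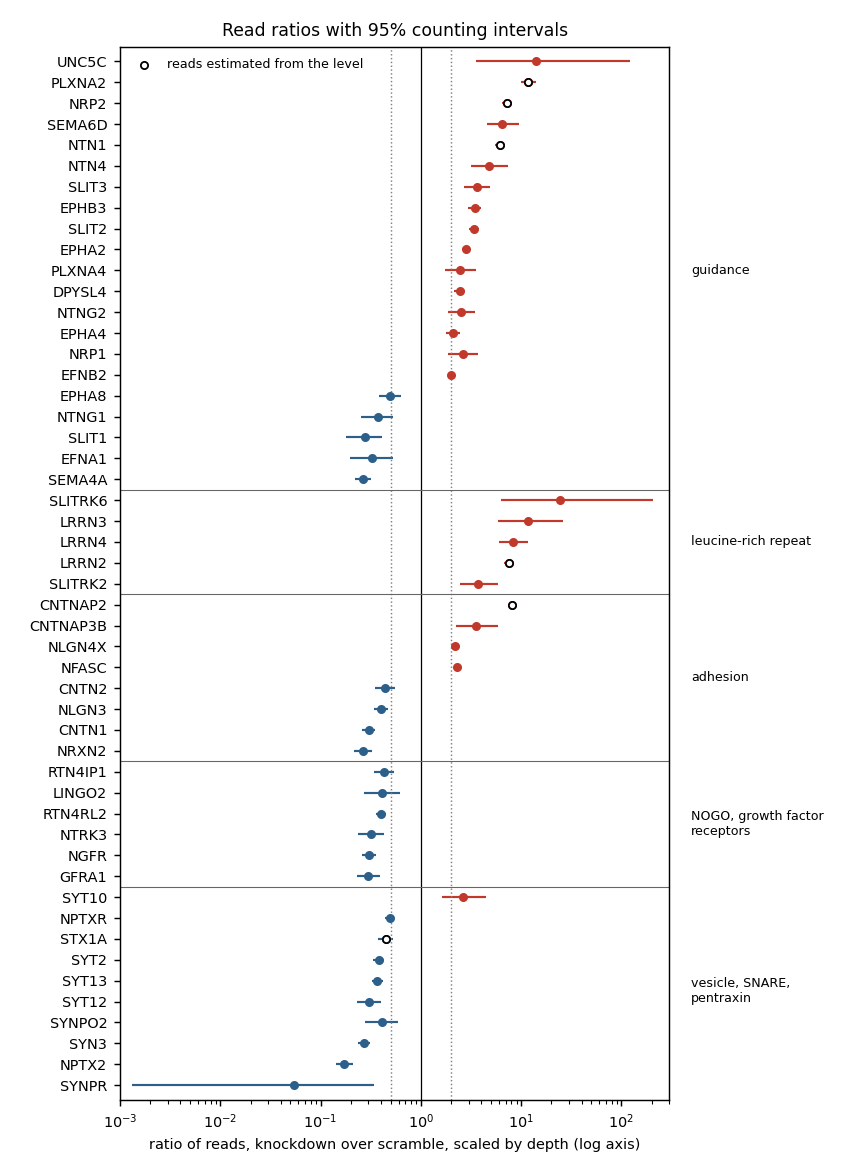
Ratio of reads in the knockdown library over the scramble library, scaled by depth, on a log axis, for the same 50 members in the same groups. Bars are exact 95% counting intervals, red marks higher and blue lower genes, open circles mark reads estimated from the level, and dotted lines mark 2-fold. The bars of 20 higher and 15 lower genes lie wholly outside the dotted lines, and SYNPR, SLITRK6 and UNC5C, with 1 or 2 reads in a library, have the widest.

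The LRRN and SLITRK genes, which encode membrane proteins with leucine-rich repeats, were all higher, while LINGO2 and RTN4RL2, whose products carry such repeats too, were lower and are described with the NOGO-related genes. LRRN2 had the highest levels of them, 4.29 FPKM with the scramble control and 32.4 FPKM with the knockdown, a ratio of 7.56 (interval 6.72 to 8.53). LRRN4 was at 0.60 and 4.97 FPKM, a ratio of 8.32 (interval 6.01 to 11.8), and LRRN3 at 0.11 and 1.22 FPKM, a ratio of 11.6 (interval 5.88 to 26.1). The SLITRK genes, named for their likeness to SLITs and to NTRK receptors, were near 1 FPKM or below. SLITRK2 was at 0.30 and 1.11 FPKM, a ratio of 3.71 (interval 2.44 to 5.81). SLITRK6 was at 0.02 and 0.49 FPKM on 2 and 47 reads, a ratio of 24.3 (interval 6.36 to 207). Counted together with the LRRTM genes, RefSeq names 15 genes of this group, of which only these 5 were listed. No LRRTM gene had a row.

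Among axonal and synaptic adhesion genes, the 2 listed neuroligins went opposite ways. NRXN2, a presynaptic receptor, was at 4.79 and 1.29 FPKM, 3.75-fold lower (interval 3.08 to 4.60). NLGN3, a postsynaptic partner of neurexins, was at 5.75 and 2.35 FPKM, 2.49-fold lower (interval 2.12 to 2.95). NLGN4X was at 9.87 and 21.3 FPKM, a ratio of 2.17 (interval 2.03 to 2.32). NLGN3 made up 36.8% of the summed FPKM of these neuroligins with the scramble control and 9.94% with the knockdown. Of the 31-base words of the NLGN4X transcript, 21.9% also occur in another gene, most of them in NLGN4Y, so its level is uncertain.

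CNTNAP2 had the highest level of all members in the knockdown library, and RTN4RL2 in the scramble library. This neurexin-like protein gathers potassium channels along myelinated axons together with CNTN2, and its level was 18.6 FPKM with the scramble control and 149 FPKM with the knockdown, a ratio of 8.06 (interval 7.74 to 8.40). Its partner CNTN2 was lower, at 1.30 and 0.58 FPKM, 2.27-fold (interval 1.80 to 2.89). CNTN1, an axonal adhesion molecule that pairs with neurofascin and with CNTNAP1 near the node of Ranvier, was at 6.94 and 2.10 FPKM, 3.32-fold lower (interval 2.89 to 3.83). NFASC, the neurofascin gene, was at 13 and 26.8 FPKM, a ratio of 2.31 (interval 2.19 to 2.44). Known partners were thus found on opposite sides. CNTNAP3B, at 0.16 and 0.57 FPKM, is uncertain, because 55.7% of its words also occur in another gene, most of them in CNTNAP3.

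The listed genes with names of NOGO-related genes and of neurotrophic factor receptors were lower. NGFR, the low-affinity receptor of neurotrophins, was at 8.60 and 2.60 FPKM, 3.30-fold lower (interval 2.81 to 3.89), and NTRK3, the receptor kinase for NT-3, at 2.45 and 0.80 FPKM, 3.12-fold lower (interval 2.33 to 4.22). GFRA1, the co-receptor that hands GDNF to the kinase RET, was at 1.2 and 0.36 FPKM, 3.34-fold lower (interval 2.57 to 4.38). The ligand GDNF and the kinase RET, which the family names do not cover, went the other way. GDNF was at 0.32 and 2.69 FPKM, a ratio of 8.46 (interval 5.70 to 13), and RET at 5.85 and 28.8 FPKM, a ratio of 4.94 (interval 4.51 to 5.41).

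RTN4RL2, a relative of the NOGO receptor, had the highest scramble level of the lower members, at 20.9 and 8.45 FPKM, 2.47-fold lower (interval 2.21 to 2.78). LINGO2, of the family that forms receptor complexes with NGFR, was at 1.16 and 0.48 FPKM, 2.42-fold lower (interval 1.61 to 3.71). RTN4IP1 shares the letters but encodes a mitochondrial protein found as a partner of RTN4, and was at 3.76 and 1.61 FPKM, 2.34-fold lower (interval 1.85 to 2.97). Genes on the opposite strand overlap 28.7% of the exon bases of RTN4RL2 and 27.1% of those of NGFR, so reads of these genes and their antisense partners cannot be told apart.

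Of the listed synaptotagmins, syntaxins and synapsins only SYT10 was higher. SYN3, a synapsin that coats vesicles, was at 13.3 and 3.61 FPKM, 3.67-fold lower (interval 3.19 to 4.24), and the SNARE gene STX1A at 5.68 and 2.53 FPKM, 2.24-fold lower (interval 1.88 to 2.68). Among synaptotagmins, SYT13 was at 7.78 and 2.87 FPKM, 2.72-fold lower (interval 2.39 to 3.09), and SYT12 at 2.90 and 0.90 FPKM, 3.26-fold lower (interval 2.5 to 4.31). SYT2, a fast calcium sensor of release, was at 5.15 and 1.95 FPKM, 2.64-fold lower (interval 2.33 to 3.0), with 27.2% of its exon bases overlapped by an opposite-strand gene, as are 17.9% of those of STX1A. SYT10 was higher, at 0.32 and 0.82 FPKM, a ratio of 2.63 (interval 1.61 to 4.41), and it had the largest false discovery rate of the members in the authors' deposited table, 1.05e-04. Summed over the 4 listed synaptotagmins, the level was 16.1 FPKM with the scramble control and 6.54 FPKM with the knockdown.

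The neuronal pentraxins, secreted or membrane-bound proteins that cluster glutamate receptors, were both lower. NPTX2 was at 12.1 and 2.08 FPKM, 5.82-fold lower (interval 4.82 to 7.09). NPTXR was at 8.06 and 3.95 FPKM, 2.04-fold lower (interval 1.84 to 2.27), the lower member whose level ratio lay nearest to the authors' limit. SYNPR, a vesicle membrane protein, had 19 reads with the scramble control and 1 with the knockdown, at 0.32 and 0.02 FPKM, 18.4-fold lower with a wide interval (2.92 to 763). SYNPO2, an actin-binding protein known from muscle, was at 5.27 and 1.62 FPKM, and 2.47-fold lower by reads (interval 1.69 to 3.65).

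Annotation terms in the authors' deposited table can be set beside these groups. The term synaptic vesicle was attached to 6 members, 5 of them lower (STX1A, SYN3, SYNPR, SYT12 and SYT2) and SYT10 higher, beside 7 lower and 2 higher genes in the whole table. The term regulation of neurotransmitter levels was attached to 4 lower members and no higher one, beside 6 lower and 3 higher in the table. Chemotaxis was attached to 12 higher and 6 lower members, beside 31 higher and 13 lower in the table. The higher members had a median gene length of 4941 bases and the lower ones 3479, beside 3276 and 2940 for the higher and lower genes of the table.

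Genes of the same pathways that the family names do not cover were taken from 6 lists of 169 genes in all. Of these, 26 had a row, 17 higher and 9 lower, beside 54.1% higher and 45.9% lower of all genes in the table. Of all protein-coding genes, 8.86% had a row. Of 22 pathway genes at 1 FPKM or more, 15 were higher by 2-fold or more and 7 lower. Among table genes at that level the shares were 51.6% and 44.7%. Counts of single lists rest on few genes, and no difference from the table was tested. Of 19 other guidance cues and receptors 5 were higher and 1 lower. FLRT3, a membrane protein that binds UNC5 receptors and latrophilins, was at 0.20 and 7.73 FPKM, a ratio of 40.6 (interval 25.5 to 68.8), and FLRT1, its relative, was the lower gene, at 1.03 and 0.36 FPKM. All 3 listed of 34 growth cone signalling genes were higher, SRGAP1, an effector of SLIT and ROBO signals, at 1.17 and 3.14 FPKM, and MICAL2, of a family that acts on actin downstream of plexins, at 0.57 and 1.24 FPKM.

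Synapse lists outside the family names were divided. Of 46 presynaptic genes 3 were higher and 5 lower. RIMS4, of the active zone, had the lowest log2 ratio of them, at 13.4 and 5.30 FPKM, 2.53-fold lower (interval 2.30 to 2.78), RAB3A was at 18.1 and 7.33 FPKM, and SYP, the vesicle protein synaptophysin, at 3.04 and 1.31 FPKM. VAMP8, a SNARE of endosomes and of secretion outside neurons, had the highest log2 ratio there, at 32.6 and 106 FPKM, and UNC13A, a priming factor of vesicles, was higher too, at 5.97 and 14.3 FPKM. Of 33 further synaptic organisers 3 were higher, with MDGA2 at 0.56 and 1.75 FPKM, and 2 lower, with CADM2 at 1.81 and 0.55 FPKM. Of 25 postsynaptic scaffold genes SHANK1 was higher (0.43 and 1.2 FPKM) and GRIP2 lower (1.32 and 0.54 FPKM).

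**Figure D3:**
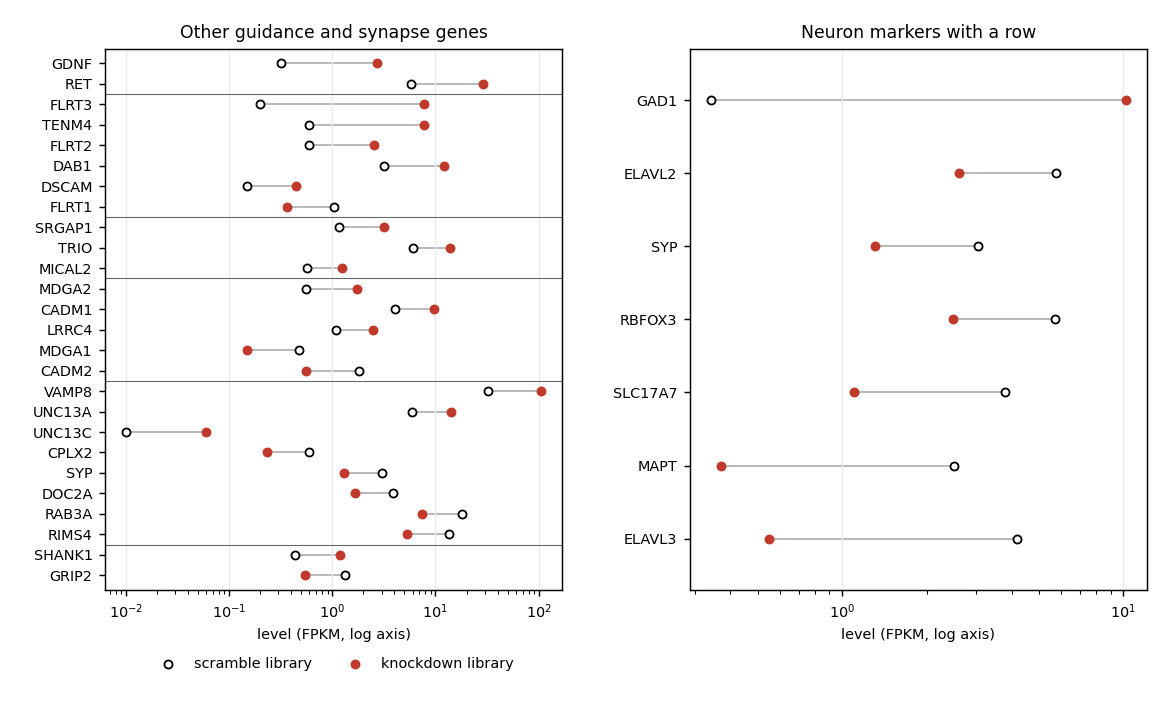
Levels in FPKM on log axes of the 26 listed genes of the 6 pathway lists (left, lists separated by lines) and of the 7 neuron markers with a row (right). Open circles are the scramble library and filled red circles the knockdown library, 1 library each. The guidance genes at the top left lie mostly to the right of their scramble level, and all neuron markers except GAD1 lie to the left.

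Of 26 neuron markers 7 had a row, 6 of them lower and 1 higher, beside 45.9% lower of all genes in the table. The lower markers were ELAVL3 (4.18 and 0.55 FPKM, 7.67-fold, interval 5.81 to 10.3), the tau gene MAPT (2.5 and 0.37 FPKM, 6.79-fold, interval 4.97 to 9.46), SLC17A7, RBFOX3, ELAVL2 and SYP. GAD1, an enzyme of GABA synthesis, was at 0.34 and 10.2 FPKM, a ratio of 34.3 (interval 23.0 to 53.2). The summed level of the 7 was 25.3 and 18.6 FPKM, and without GAD1, the 1 higher marker, it was 25 and 8.39 FPKM. SYP stands in the presynaptic list as well. No neuron marker with a row was at the floor in either library. Of 12 neural progenitor markers NES was higher and 2 were lower (summed level 154 and 277 FPKM), of 11 neural crest markers 1 was higher and 1 lower (13.8 and 5.14 FPKM), and of 10 fibroblast markers 1 was higher and 1 lower (111 and 26.3 FPKM). Their part in the levels of the members was not tested.

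RefSeq names 188 protein-coding genes under these family names, and 51 of them (27.1%) had a row, beside 1776 of all 20052 protein-coding genes (8.86%). The levels of the others were not analysed here. Among families, 4 of 6 netrins and 4 of 11 plexins and neuropilins had a row, against 1 of 21 syntaxins and SNAPs and 2 of 20 semaphorins. Of the 9 members under 1 FPKM in both libraries, 6 were higher (UNC5C, PLXNA4, SLIT3, SLITRK6, CNTNAP3B and SYT10) and 3 lower (SLIT1, NTNG1 and SYNPR).

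Levels and reads gave the same direction for every member. The reads were sought near the ratio of levels or estimated from the level, so this is no separate check. The ratio of reads differed by more than 10% from the ratio of levels for 7 members (PLXNA4, NRP1, UNC5C, SLIT1, NFASC, SYNPO2 and SYNPR), and the cause was not tested. Divided by the ratio of levels, the ratio of reads ran from 0.731 for SLIT1 to 1.32 for SYNPO2. For PLXNA2, NRP2, NTN1, LRRN2, CNTNAP2 and STX1A, 6 members in all, no whole reads could be inferred and reads were estimated from the level.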

How the data were processed

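RNA from 1 scramble and 1 knockdown library was read on the BGISEQ-500 platform according to the labels. The submitters' processing notes name hg19 and Bowtie 0.12.2. The sources used here give no counter, test or strand setting. The deposited table gives levels, read as FPKM from their values (RPKM cannot be told apart), with a floor of 0.01. It also gives the authors' log2 ratio, p-value and false discovery rate. Log2 ratios were recomputed here with a pseudocount of 0.1 FPKM, which understates low genes.

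Whole read pairs were sought whose ratio fit that of the levels (each within 2, 5 or 10%, with a few reads allowed beyond). They also had to fit the p-value of an Audic-Claverie test (within 1e-05 in natural log). The size of each level was not checked, so the reads of a pair need not give back the deposited levels. A pair was found for 1888 (98.0%) of the 1926 genes whose p-value was not 0, among them 45 of the 51 members. Tested on a simulated table of 1871 genes drawn from this comparison, 100% of pairs were exact. Its levels and p-values came from the same formulas that the search inverts, so it cannot show that these formulas hold for the deposited data. For 200 changed genes, 95.5% of intervals held the true ratio. These intervals used the drawn reads before any limit on the p-value, so they do not cover the choice of genes by the authors' limits. The simulation holds no isoform lengths. PCR copies are not marked, so reads need not be separate molecules. Shared words, exon overlap (GENCODE 29) and promoters (RefSeq) were computed with Python 3.11.15 and SciPy 1.17.1.

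No test across conditions was made, since there was 1 library per group. Values are given for every member at 1 FPKM or more, except 1 that is counted but not reported here, and for the highest and lowest listed gene of each pathway list. The members and the lists (6 of pathway genes, 7 of cell type markers) were chosen with earlier results of these data known. Further genes were named after their values were seen.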

Additional observations from a re-analysis of the deposited data

How the results depend on the processing

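Directions of members at 1 FPKM or more could not change when the pseudocount was raised to 1 FPKM, because adding a constant keeps the order of the levels. The authors' deposited log2 ratio was that of the same levels, so its direction was fixed as well. Inferred reads, a setting chosen after seeing the data, gave these directions too. Their ratio was tied to the levels by the search or by the estimate, so the direction was not tested by any of these settings. The 18 higher and 22 lower members became 12 and 12 with a pseudocount of 1 FPKM, 11 and 12 among genes at 5 FPKM or more, and 8 and 1 at 4-fold, where the stricter limits leave fewer genes. The median log2 ratio of -1.02 was -0.54 with a pseudocount of 1 FPKM, -1.05 with the deposited ratio and -0.01 at 5 FPKM or more. It changed sign without a filter on low levels (0.95). It did so too (1.01) for the 36 members left without synaptotagmins, syntaxins, synapsins and their relatives. These 36 still held the pentraxins and the genes with names of NOGO-related genes and of neurotrophic factor receptors. The median so gives no direction for the members as a whole. Lower pathway genes numbered 7, or 2 with a pseudocount of 1 FPKM. No paired analysis was possible because each group had 1 library and no test was made. Depth limits genes with few reads most: SYNPR, SLITRK6 and UNC5C rest on 1 or 2 reads in a library.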

Other observations

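Vesicle and membrane genes with related names that the family names leave out, 6 in number, were chosen after their values were seen. They were divided, 3 higher and 3 lower in the knockdown library. SYNJ2, a synaptojanin that acts on membrane lipids, had 2.94 FPKM with the scramble control and 8.36 FPKM with the knockdown, a read ratio of 2.85 (exact 95% counting interval 2.57 to 3.16). CADPS, which primes dense-core vesicles, had 2.38 and 5.72 FPKM, and the read-through gene STX16-NPEPL1 3.08 and 8.33 FPKM. SYTL2, a synaptotagmin-like protein of vesicle transport, had 1.61 and 0.64 FPKM, 2.41-fold lower (interval 1.69 to 3.48). The copines CPNE5 (1.34 and 0.52 FPKM) and CPNE9 (3.93 and 1.79 FPKM) were lower too.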
